A study of Caenorhabditis elegans with 6 samples.

Results

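Gravid adults, hermaphrodites that carry developing embryos, were compared between *ebax-1(tm2321)* mutants (strain FX02321) and wild-type *Caenorhabditis elegans* (strain N2) by sequencing of poly(A)+ RNA. The comparison holds 13563 of the 20447 genes of the count table, chosen as those with a sum of 50 or more counts in the 2 adult libraries. Each genotype gave 1 adult library, of 21328335 counts for N2 and 13148409 for *ebax-1*, from worms grown with food at 20 °C for about 68 h. The other 4 libraries of the series came from starved L1 larvae of N2 and of *ebax-1(tm2321)* in another strain, CZ9907. Both strains carry the same deletion allele in every cell. The study took a piRNA change in the *tm2321* line to point to a further mutation elsewhere in the genome, so a difference here may belong to the line rather than to the gene, and each mutant strain is 1 line. With 1 library a side there is no replicate test and no p-value.

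EBAX-1 is the nematode counterpart of ZSWIM8, the substrate receptor of a cullin-RING E3 ubiquitin ligase. This ligase marks Argonaute proteins for destruction when their microRNA pairs with certain target transcripts, which exposes the microRNA to decay. In gravid adults the microRNAs of the miR-35 family, made by the germline and the embryo, are among those known to depend on EBAX-1. A gravid adult is a mixture of somatic tissues, germline and embryos, and transcripts of yolk proteins, ribosomal proteins and the germline are among its mRNAs.

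Levels are given as read counts and as CPM, the count relative to the size of its library, after scaling of the libraries by TMM (trimmed mean of M values). The log2 fold change is mutant over wild type on that scale with a prior count of 1. Intervals are 95% exact binomial (Clopper-Pearson) intervals of the ratio of both counts, and they cover counting error only. Worms of one genotype can vary for reasons that counting error does not include. Fewer cells of a type and less RNA per cell cannot be told apart in whole worms.

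The labels were checked against marker genes. The yolk protein genes *vit-2* and *vit-6* stood at 375351 and 415014 counts in N2 adults and at 263466 and 306741 counts in *ebax-1* adults. They had at most 20 counts in any L1 library. The adult cuticle collagen *col-19* had 16667 and 15026 counts in adults and at most 5 in a larval library. All 8 gravid adult markers were detected and summed to 43987 CPM in wild type and 50237 CPM in the mutant. The 4 germline markers summed to 1151 and 997 CPM. Early zygotic markers of embryos were scarce. *med-1* was at 0 counts in both adult libraries, *hlh-27* had 0 and 2 counts, and *pes-10* had 46 and 32 counts. Larval and molting genes were present in both libraries, with *mlt-10* at 849 and 299 counts and *nas-37* at 1752 and 613 counts, so neither library was free of molt transcripts. The 5 larval or molt markers summed to 342 CPM in wild type and 277 CPM in the mutant, and the part of developmental age in the results was not tested.

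*ebax-1* itself (WBGene00004140) had 1051 counts in N2 adults and 275 in *ebax-1* adults, or 49.8 and 20.7 CPM. The ratio was 0.415 (interval 0.362 to 0.474). The counts sum over the whole coding sequence, and the deleted stretch was not separated, so the remaining counts do not measure intact transcript.

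Most genes stood close to their wild-type level. The 25th and 75th percentiles of the log2 fold changes were -0.23 and 0.20 around a median of -0.01, and the 5th and 95th percentiles were -0.74 and 0.81. At least 2-fold higher in the mutant were 433 genes, or 3.19% of those measured, and 368 genes (2.71%) were at least 2-fold lower. Both directions together made up 5.91%. Of these calls 54.1% were higher, and with a minimum of 50 counts in wild type alone 41.6% were. The whole counting interval lay beyond 2-fold for 42.3% of the higher and 40.2% of the lower genes. At least 8-fold, 15 genes were higher and 34 lower.

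**Figure D1:**
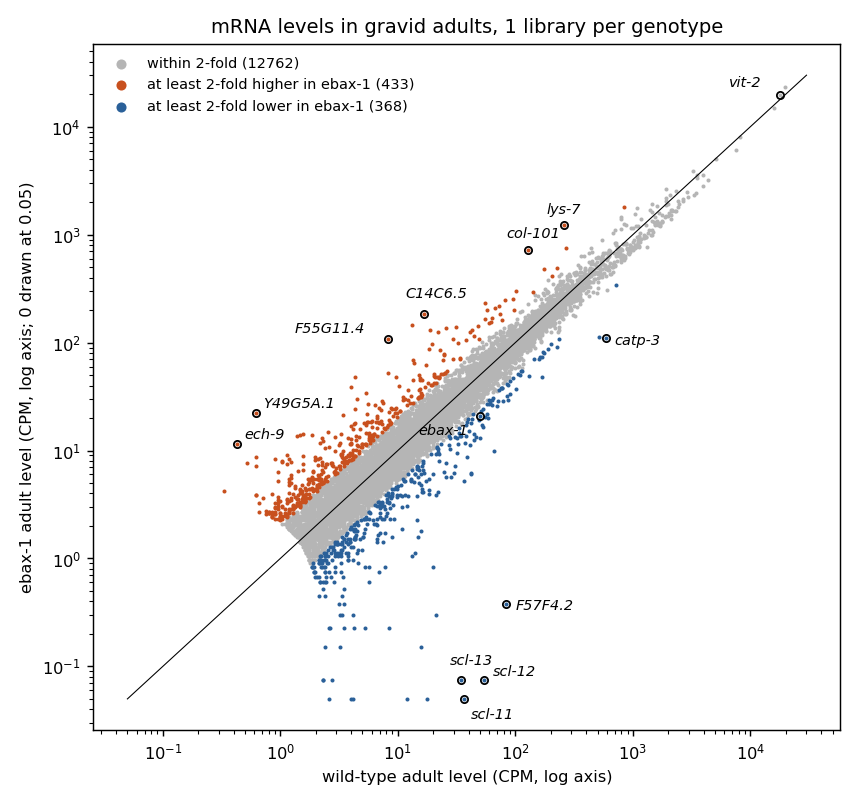
Level of each of the 13563 measured genes in the wild-type adult library (x axis, CPM, log scale) and the *ebax-1* adult library (y axis, CPM, log scale), with genes at least 2-fold higher in the mutant in orange (433) and at least 2-fold lower in blue (368). The line marks equal levels, and a level of 0 is drawn at the lower edge. Abundant genes such as *vit-2* lie near the line, while *scl-11*, *scl-12*, *scl-13* and *F57F4.2* lie far below it.

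The only measure of spread between libraries of one genotype in the series comes from the larvae. Between the 2 wild-type L1 replicates 0.39% of genes with the same minimum differed at least 2-fold, and between the 2 mutant L1 replicates 0.372% did. Nearly all of these genes had under 200 counts. Among genes with 1000 or more counts over the pair, 0 of 3830 and 0 of 3648 genes differed 2-fold between larval replicates, and 127 of 6062 (2.1%) differed between the adult genotypes. Larval replicates came from another stage, and the spread between adult libraries of one genotype was not measured.

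Genes past 2-fold were mostly of low abundance. Among the higher genes the median level in N2 adults was 3.18 CPM, and among the lower genes it was 7.66 CPM, against 22.3 CPM over all measured genes. Together the higher genes took 0.57% of the wild-type counts and 1.68% of the mutant counts. The lower genes took 0.995% and 0.378%. Of 2579 genes with at least 100 CPM in either library, 36 were higher and 20 lower by this measure.

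A small group of genes was expressed in wild-type adults and nearly absent from the mutant. *scl-11* (chromosome IV), which encodes a secreted protein of the SCP (sperm-coating protein) and CAP type, had 767 counts in N2 adults and 0 in *ebax-1* adults. Against a floor of 3 counts in the mutant library it was at least 161-fold lower. Its relatives *scl-12* and *scl-13*, neighbours on chromosome V, had 1130 and 729 counts in N2 adults and 1 count each in *ebax-1* adults. Their ratios of mutant to wild type had upper bounds of 0.00783 and 0.0122. The acyltransferase-like gene *oac-39* had 372 and 0 counts, and *F57F4.2* had 1771 and 5 counts, a ratio of 0.00448 (0.00145 to 0.0105). These genes were near absent from L1 larvae of both genotypes, with at most 5 counts over either pair of larval libraries.

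*ZK228.3* and *ZK228.4*, neighbours on chromosome V, differed from that group in their larval counts. *ZK228.3* had 251 counts in wild-type adults and 0 in mutant adults, with 19 and 23 counts in wild-type larvae and 0 and 0 in mutant larvae. *ZK228.4* had 329 and 2 counts in adults, 72 and 61 in wild-type larvae and 0 and 0 in mutant larvae. The chemoreceptor gene *srw-85* was also low in mutants of both stages, with 87 and 4 counts in adults, 787 and 707 in wild-type larvae and 25 and 44 in mutant larvae. Of the 34 genes at least 8-fold lower in mutant adults, only *ZK228.3* and *ZK228.4* had 20 or more counts over the wild-type larvae and 0 in both mutant larval libraries.

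*D1086.9* showed the reverse arrangement, with 55 and 0 counts in adults but 41 and 30 counts in wild-type larvae and 64 and 43 in mutant larvae. Its absence was thus seen in the adult library of strain FX02321 and not in the larval libraries of strain CZ9907. These libraries differ in stage and feeding as well as in strain, and the 3 cannot be told apart here. The other genes with 0 counts in mutant adults and at least 50 in wild type were the acyltransferase-like *oac-12* (87 counts) and the collagen *col-108* (84 counts). They had 16 or more counts over the 2 mutant larval libraries. No gene had 0 counts in wild-type adults and 50 or more in the mutant. The saposin-like gene *spp-11*, of a family of antimicrobial peptides, had 449 and 4 counts, and *clx-1* had 178 and 3 counts. *C54F6.15*, *F36F12.2* and *R05A10.1* had 417, 111 and 298 counts in N2 adults and 11, 3 and 15 in *ebax-1* adults. *R05A10.1* was abundant in larvae of both genotypes, at 1258 and 1150 counts in wild type and 881 and 792 counts in the mutant.

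Among abundant genes the largest deficit was that of *catp-3*, which encodes a P-type cation-transporting ATPase. It stood at 585 CPM in wild type (12338 counts) and at 111 CPM in the mutant (1471 counts), a ratio of 0.189 (0.179 to 0.2). *T25C12.3* had 10938 and 1496 counts, with a ratio of 0.217 (0.205 to 0.229). The C-type lectin gene *clec-52* had a ratio of 0.288 and *clec-1* one of 0.407. *dpf-6*, of the dipeptidyl peptidase IV family, had 0.361, and *R11F4.1* had 0.378. In larvae *catp-3* was also lower in the mutant, with 1727 and 1956 counts in wild type and 702 and 538 in the mutant.

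The largest excess in the mutant was that of *Y49G5A.1*, with 13 counts in N2 adults and 296 in *ebax-1* adults, a 36.1-fold ratio (20.8 to 68.6). *ech-9*, named for its similarity to enoyl-CoA hydratases, had 9 and 153 counts, a 27-fold ratio (13.8 to 60.1). At higher levels, *F55G11.4*, which encodes a protein with a CUB-like domain, had 175 and 1448 counts and a 13.1-fold ratio. *C14C6.5* went from 16.6 to 184 CPM and the folate transporter family gene *folt-2* from 280 to 1922 counts. *C50F7.5* was 6.87-fold and *dod-19*, known as a gene downstream of the insulin-regulated factor DAF-16, 5.68-fold higher. The lysozyme gene *lys-7* was an abundant gene past 2-fold, at 260 CPM in N2 and 1219 CPM in *ebax-1* adults, a 4.69-fold ratio (4.55 to 4.84). *clec-190* had 85 and 518 counts in adults and 0 in all larval libraries. *T22B7.7* had 29 and 181 counts.

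**Figure D2:**
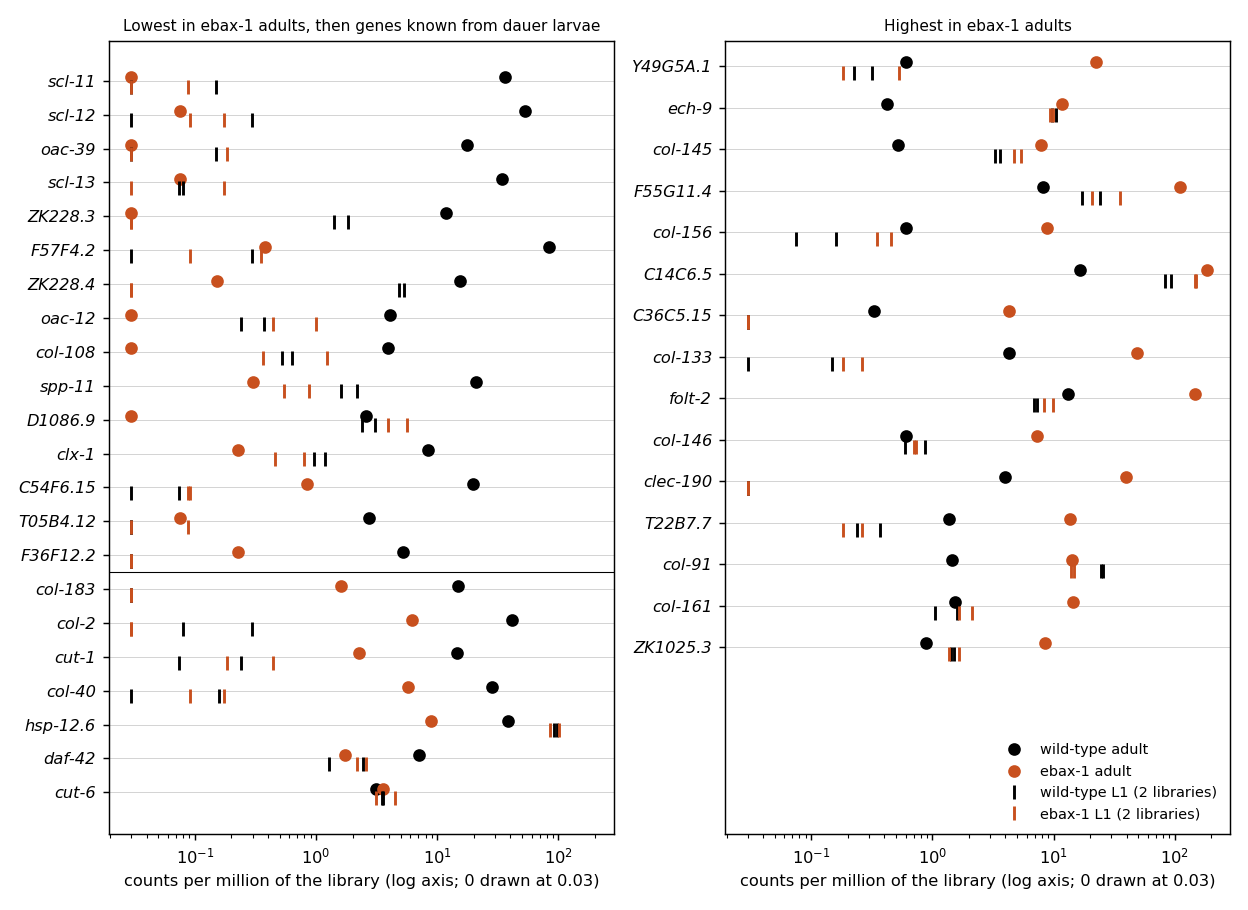
Levels in all 6 libraries, as counts relative to the library total (log axis, with 0 drawn at 0.03), for the 15 lowest and 15 highest log2 fold changes over all measured genes and, below the line on the left, for further measured genes known from dauer larvae. Circles are adults and ticks are L1 larvae, black for wild type and orange for *ebax-1*. On the left the mutant adult circle lies left of the wild-type circle for every gene but *cut-6*, which had 66 and 47 counts.

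Genes linked to the dauer larva, the resistant and non-feeding larval form that worms enter under crowding or starvation, were low in the mutant adults. This group was assembled after its values were seen and is given as a description. Of its 9 measured members 8 were at least 2-fold lower and 0 higher, beside 2.71% and 3.19% of all measured genes, and since the values chose the group nothing is read from that count. The collagen genes *col-2* and *col-40* had 883 and 598 counts in N2 adults and 81 and 75 counts in *ebax-1* adults. *col-183* had 315 and 21 counts. *cut-1*, a cuticlin of the dauer alae, had 309 and 30 counts, and *daf-42* had 150 and 23 counts. The small heat shock protein gene *hsp-12.6* had 821 and 117 counts, a ratio of 0.226 (0.185 to 0.275). *scl-12* and *scl-13*, above, belong to this group too. *cut-6* had 66 and 47 counts, a log2 fold change of 0.17. *nhr-246* and *ets-10* were below the minimum. *col-2*, *col-40*, *col-183* and *cut-1* had at most 5 counts in any L1 library, whereas *hsp-12.6* had 975 to 1244 counts in every larval library.

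Cuticle collagens lay on both sides of 0. They form the extracellular coat of the worm, and distinct sets are made at each molt. Of 123 measured *col-* genes, 37 were at least 2-fold higher and 24 lower by as much, or 30.1% and 19.5%, beside 3.19% and 2.71% of all measured genes. Their median was 0.33 and their quartiles were -0.37 and 1.25. With a minimum of 50 counts in wild type the median was 0.15. In sum they took 1.47% of the wild-type counts and 2.14% of the mutant counts.

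The abundant collagens past 2-fold all lay on the higher side. In wild type the higher collagens had the larger summed level, 1203 CPM against 400 CPM for the lower ones, but the smaller median. Median wild-type levels were 4.17 CPM for the 37 higher and 12.9 CPM for the 24 lower collagens. In the mutant those medians were 14 and 1.84 CPM. A mean under 10 CPM was found for 21 of the higher and 14 of the lower collagens. All 8 collagens past 2-fold with a mean of 100 CPM or more were higher in the mutant, and 24 of the 25 collagens at that level were above 0. *col-101* went from 127 to 713 CPM (5.61-fold, 5.38 to 5.86) and *col-80* from 269 to 747 CPM (2.77-fold, 2.68 to 2.87). *col-129* had 1154 and 3114 counts and a 4.28-fold ratio. The log2 fold changes of *col-139*, *col-135*, *col-142*, *col-160* and *col-143* ran from 1.62 to 1.04. Among the rarer collagens, *col-145* had 11 and 103 counts, *col-156* had 13 and 115, *col-146* had 13 and 95, *col-91* had 31 and 187, and *col-133* had 92 and 637.

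The 24 lower collagens reached at most 50.5 CPM in wild type, the level of *col-36*, which had 1064 counts in N2 adults and 172 in *ebax-1* adults. *col-37* had 882 and 82 counts, *col-102* had 444 and 51, *col-84* had 461 and 55, *col-51* had 335 and 24, and *col-43* had 651 and 95. *col-185* had 120 and 8 counts. Of these 24 genes 23 were lower in wild-type L1 larvae than in adults, with *col-44* the exception, and their median log2 ratio of L1 to adult level was -4.9. For the 37 higher collagens that median was -1.47, and 12 of them were higher in L1 larvae.

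**Figure D3:**
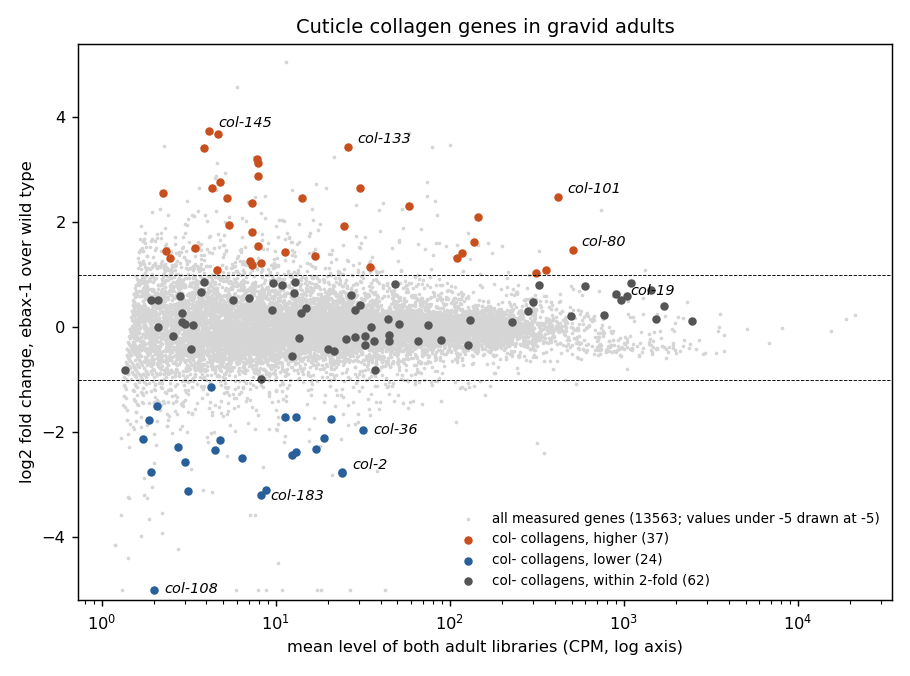
Log2 fold change of *ebax-1* over wild-type adults (y axis) against the mean level of both adult libraries (x axis, CPM, log scale) for all measured genes in grey and the 123 measured *col-* collagens in colour. Dashed lines mark 2-fold, and points beyond the lower edge are drawn on it. Collagens above 100 CPM lie above 0 except 1, and the lower collagens lie under 100 CPM.

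Body-shape collagens, whose mutants are short, long, blistered or rolling, showed a smaller shift. Of 21 measured, 2 were at least 2-fold higher and 2 lower by as much, with a median of -0.16. This is 9.52% each way, beside 3.19% and 2.71% of all measured genes. *dpy-14* and *dpy-17* were 3.05-fold and 3.04-fold higher, and the adult blister genes *bli-1* and *bli-2* had ratios of 0.489 and 0.487. Of 75 molting and hedgehog-related genes 4 were at least 2-fold higher and 10 lower, with a median of -0.07. These are 5.33% and 13.3% of the list, beside 3.19% and 2.71% of all measured genes. The lower ones included the ground-like genes *grl-23* (1398 and 132 counts), *grl-25* (773 and 69 counts), *grl-17* (66 and 5 counts) and the groundhog gene *grd-4* (56 and 3 counts). *grd-6*, with 33 and 100 counts, and the Patched-related gene *ptr-22*, with 62 and 131 counts, were higher. Of the larval stage markers 0 of 11 were past 2-fold, with *nas-37* at -0.85, *mlt-10* at -0.84, *col-10* at 0.80 and *hbl-1* at 0.69. Adult cuticle and adult stage genes had a median of -0.01, with *bli-1*, *bli-2*, *lin-29* (-0.57) and *rol-6* (-0.54) the farthest from 0.

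SCP-like secreted proteins had the lowest median of the 56 gene lists, -0.98. Of 27 members only 12 reached the count minimum. At least 2-fold lower were 6 of these 12 (50%) and 0 were higher, beside 2.71% and 3.19% of all measured genes. *scl-1*, *scl-11*, *scl-12* and *scl-13*, with 0 or 1 counts in the mutant, reached the minimum almost wholly on wild-type counts. The median was -0.86 with a minimum of 1 count and -1.08 with 200 counts. The lists were chosen with earlier results known, so the share and the rank are a description. Beside *scl-11*, *scl-12* and *scl-13*, *scl-1* had 49 and 1 counts, *scl-5* had 476 and 123, and *scl-3* had 102 and 30. The most abundant member, *scl-2*, had 4026 and 3919 counts and a log2 fold change of 0.63.

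Genes of defence lay past 2-fold in both directions. Worms fight infection with secreted lectins, lysozymes and CUB-like proteins, many of them made in the intestine. Of 50 other immune effectors, 11 were at least 2-fold higher and 4 lower, or 22% and 8%, beside 3.19% and 2.71% of all measured genes. Their median was 0.35, and 0.09 with a minimum of 200 counts. *F55G11.4* and *dod-24*, which lie in a cluster of CUB-like genes on chromosome IV, had log2 fold changes of 3.70 and 2.72. *irg-8* and *irg-5*, genes induced by infection, had 2.36 and 2.09. *C32H11.4*, *oac-20* and *dod-6* were on the other side at -1.96, -1.85 and -1.74. Of 34 lysozymes and saposins 5 were higher and 3 lower, or 14.7% and 8.82%. Next to *lys-7*, *lys-10* had 46 and 156 counts, while *spp-20* and *spp-31* had log2 fold changes of -1.40 and -1.39. Of 99 C-type lectins 11 were higher and 7 lower, beside 3.19% and 2.71% of all measured genes, with a median of 0.02. *clec-169* and *clec-86* stood at 2.66 and 2.05, *clec-60*, an abundant one, at 1.61, and *clec-101* at -3.19.

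The intracellular pathogen response, a set of genes induced by microsporidia and viruses and by loss of the repressor PALS-22, had 7 of 27 measured genes (25.9%) at least 2-fold higher and 0 lower, beside 3.19% and 2.71% of all measured genes. Its median was 0.34, and 0.55 with a minimum of 200 counts. *pals-6* had 158 and 363 counts, *eol-1* had 20 and 38, *pals-37* had 84 and 152, and *pals-14* had 153 and 249. Of 28 intestinal genes 0 were at least 2-fold higher and 1 lower, with a median of -0.11. The cathepsin B-like *cpr-2* (-1.02), the aspartic protease *asp-8* (-0.86), the aquaporin *aqp-8* (0.84) and the intermediate filament *ifc-2* (-0.68) were farthest from 0. The intestinal master factor *elt-2* had 735 and 311 counts, or -0.57. Chitinases and chitin-binding genes had a median of 0.07 and 1 member past 2-fold, *cht-4*, at 1.21.

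In lipid metabolism the genes of synthesis leaned below 0, and those of oxidation and transport were centred on 0. Of 23 genes of fatty acid synthesis and desaturation 19 were below 0, with a median of -0.28. The acetyl-CoA carboxylase gene *pod-2*, whose product makes malonyl-CoA, went from 608 to 305 CPM, a ratio of 0.501 (0.484 to 0.519). The Δ9 desaturase genes differed in direction, with *fat-5* at 1331 and 349 counts and *fat-7* at 92 and 240 counts. *fat-6* and *fat-7* are close paralogs, and reads they share were not counted. The elongases *elo-2* and *elo-6* stood at -0.85 and -0.64. Of 77 genes of fatty acid oxidation and lipid transport 5 were at least 2-fold higher and 2 lower, with a median of 0.00. These are 6.49% and 2.6% of the list, beside 3.19% and 2.71% of all measured genes. *acdh-1*, an acyl-CoA dehydrogenase gene, went from 836 to 1791 CPM (2.14-fold, 2.1 to 2.19). Beside *ech-9*, *acs-7* and the peroxisomal oxidase *acox-1.3* stood at 1.59 and 1.58, and *acs-11* stood at -1.08.

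Of 20 genes of starvation, the glyoxylate cycle and trehalose, 16 were below 0 and 3 at least 2-fold lower, with a median of -0.24. The 3 are 15% of the list, beside 2.71% of all measured genes. The mitochondrial superoxide dismutase gene *sod-3*, a standard readout of DAF-16, had 335 and 64 counts, the flavin monooxygenase *fmo-2* had 1117 and 221, and the sphingomyelinase *asm-3* had 3428 and 978. *daf-16* itself stood at -0.39. In the insulin pathway 1 of 27 genes was higher and 1 lower, or 3.7% each way, near the 3.19% and 2.71% of all measured genes. These were *ins-34* (16 and 34 counts) and *ins-4* (91 and 20 counts), with *ins-7* at 0.93 and *ins-3* at -0.92. Methionine and propionate genes had a median of 0.16, with *acdh-1*, *nhr-114* (1.41), *sams-1* (0.76) and *nhr-68* (0.67) on top. Hypoxia and sulfide genes had a median of 0.06 and 1 member past 2-fold, *cysl-2* at -1.07.

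Detoxification genes included members past 2-fold in both directions. Of 50 cytochromes P450 4 were higher and 5 lower, or 8% and 10%, beside 3.19% and 2.71% of all measured genes, with *cyp-13A5* at 2.33, *cyp-35C1* at 1.93, *cyp-33B1* at -1.91 and *cyp-29A3* at -2.70. Of 56 UDP-glycosyltransferases 3 were higher and 3 lower, or 5.36% each way, among them *ugt-18* (621 and 1430 counts) and *ugt-27* (72 and 9 counts). Of 31 glutathione transferases 24 were below 0, with a median of -0.21, and *gst-28* and *gst-10* were at -1.23 and -1.07. Antioxidant and metal response genes had a median of -0.12, with *sod-3* the one past 2-fold and *cdr-4*, *ttm-1* and *mtl-1* at 0.83, -0.55 and -0.54. Of 24 cytosolic heat shock and chaperone genes 3 were higher and 1 lower, or 12.5% and 4.17%, around a median of 0.00. The stress-induced *hsp-16.2* had 208 and 297 counts, *hsp-17* had 331 and 423, *hsp-12.1* had 39 and 60, and *hsp-70* had 715 and 578, or 0.36. Endoplasmic reticulum stress genes had a median of 0.10, led by *dnj-27* (0.56), *pek-1* (0.56) and *xbp-1* (0.52). Mitochondrial stress genes had a median of -0.17, with *timm-23* at -0.62 and *hsp-60* at -0.54, and chaperonin and prefoldin genes one of -0.13.

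Components of the cytosolic ribosome lay below 0 nearly without exception. Of 78 measured ribosomal protein genes 77 were below 0, although 0 reached 2-fold, and the quartiles were -0.48 and -0.36 around a median of -0.41. They took 9.27% of the wild-type counts and 7.17% of the mutant counts. *rpl-5* went from 2099 to 1404 CPM (ratio 0.669, 0.657 to 0.68), and *rpl-39*, *rps-29* and *rpl-11.2* stood at -0.61, -0.60 and -0.59. Over all measured genes 51.6% were below 0.

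Other core complexes were below 0 by a smaller amount. Of 50 nuclear genes of the respiratory chain 49 were below 0, with a median of -0.26, and *cox-6C*, *ucr-11*, *ucr-2.3* and *cox-10* stood at -0.69, -0.60, -0.56 and -0.55. Of 36 proteasome genes 33 were below 0, with a median of -0.19, and *pbs-2* and *pas-4* stood at -0.63 and -0.44. Mitochondrial ribosomal proteins had a median of -0.09, with 48 of 69 below 0. Histone genes, many of whose transcripts lack a poly(A) tail, had 18 measured members and a median of -0.15, with *his-70* at -1.07.

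Ribosomal and respiratory genes have short coding sequences, and length was associated a little with the fold change. The decile of genes with the shortest coding sequence, up to 426 nt, had a median of -0.10, and the decile with the longest, from 2730 nt, had one of 0.03. Genes of the same span of coding lengths as the ribosomal proteins and a mean of 100 CPM or more, with those proteins left out, numbered 733 and had a median of -0.03. Their median coding length was 843 nt, against 450 nt for the ribosomal proteins, so this set shares the range of lengths only. After the median of its length decile was subtracted from each gene, the ribosomal protein median was -0.36 and the respiratory chain median was -0.21. Total-count scaling gave a ribosomal protein median of -0.38.

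Neuropeptide genes were also below 0. Of 54 neuronal genes 49 were below 0, with a median of -0.50. At least 2-fold lower were 3, or 5.56% beside 2.71% of all measured genes. Of the 54 neuronal genes 29 encode FMRFamide-like peptides. Those peptides had a median of -0.56, and the 25 other neuronal genes had one of -0.28. *flp-7* had 687 and 153 counts (ratio 0.353, 0.294 to 0.421). The monoamine transporter *cat-1* had 54 and 14 counts, the acetylcholine transporter *unc-17* had 85 and 26, and *flp-5* had 206 and 72. The synaptic genes *rab-3* and *snb-1* stood at -0.28 and -0.06. Of 54 *nlp-* peptide genes 45 were below 0, with a median of -0.42. At least 2-fold lower were 5 (9.26%) and higher 2 (3.7%), beside 2.71% and 3.19% of all measured genes. *nlp-71*, *nlp-70* and *nlp-2* were at -1.27, -1.26 and -1.22, and the higher ones, *nlp-27* and *nlp-24*, were at 1.11 and 1.04. Length-centred medians were -0.41 for the neuronal list and -0.34 for *nlp-* peptides.

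Genes of sensory cilia, the antenna-like endings of sensory neurons, lay on the other side. Of 43 measured 32 were above 0 and 3 at least 2-fold higher, or 6.98% beside 3.19% of all measured genes, with a median of 0.30. The median was 0.15 with a minimum of 200 counts and 0.19 with 50 counts in wild type. These genes were rare, with *che-11* at 74 and 105 counts, *bbs-8* at 34 and 46, and *mks-6* at 34 and 45. Of 50 measured chemoreceptors, from 1162 in the table, 7 were higher and 3 lower, or 14% and 6% beside 3.19% and 2.71% of all measured genes, led by *srw-85* and, on the higher side, *srlf-35* (2.03) and *srh-237* (1.47).

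Basement membrane genes had the highest median of the lists. These sheets of laminin and type IV collagen underlie muscle, gonad and epidermis. Of 24 measured genes 22 were above 0, with a median of 0.53 and quartiles of 0.31 and 0.71. The type IV collagen genes *emb-9* and *let-2* had 8094 and 9553 counts in N2 adults and 8491 and 9269 in *ebax-1* adults. *emb-9* had a ratio of 1.66 (1.61 to 1.71), and *let-2* a log2 fold change of 0.62. The laminin genes *epi-1*, *lam-1* and *lam-3* stood at 1.02, 0.77 and 0.70, the agrin gene *agr-1* at 1.14 and the hemicentin gene *him-4* at 0.91. *fbl-1*, which encodes fibulin, was at 1269 and 389 counts, a ratio of 0.486 (0.433 to 0.545). These are long genes, with a median coding length of 4202 nt. After length centring their median was 0.50.

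Body wall muscle genes were above 0 in 27 of 35 cases, with a median of 0.28. The giant elastic protein gene *ttn-1* went from 175 to 478 CPM (2.74-fold, 2.63 to 2.85). The myosin heavy chains *myo-3* and *unc-54* stood at 0.64 and 0.55, and *atn-1*, *unc-112* and *dim-1* at 0.57, 0.57 and 0.56. Pharyngeal genes were split, with 9 of 20 above 0 and a median of -0.10, which was 0.42 with a minimum of 1 count. *abu-11* and *phat-2* stood at 1.66 and 1.43, *phat-3* and *phat-6* at -1.15 and -1.10, and the pharyngeal myosin *myo-2* had 4182 and 2002 counts, or -0.40. Of 48 transthyretin-like genes 5 were at least 2-fold higher and 0 lower, or 10.4% higher beside 3.19% of all measured genes, with a median of 0.18, including *ttr-20* at 1.47 and *ttr-14* at 1.39. Somatic gonad, uterus and vulva genes had a median of -0.05, with the homeobox gene *cog-1* (48 and 12 counts) past 2-fold.

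**Figure D4:**
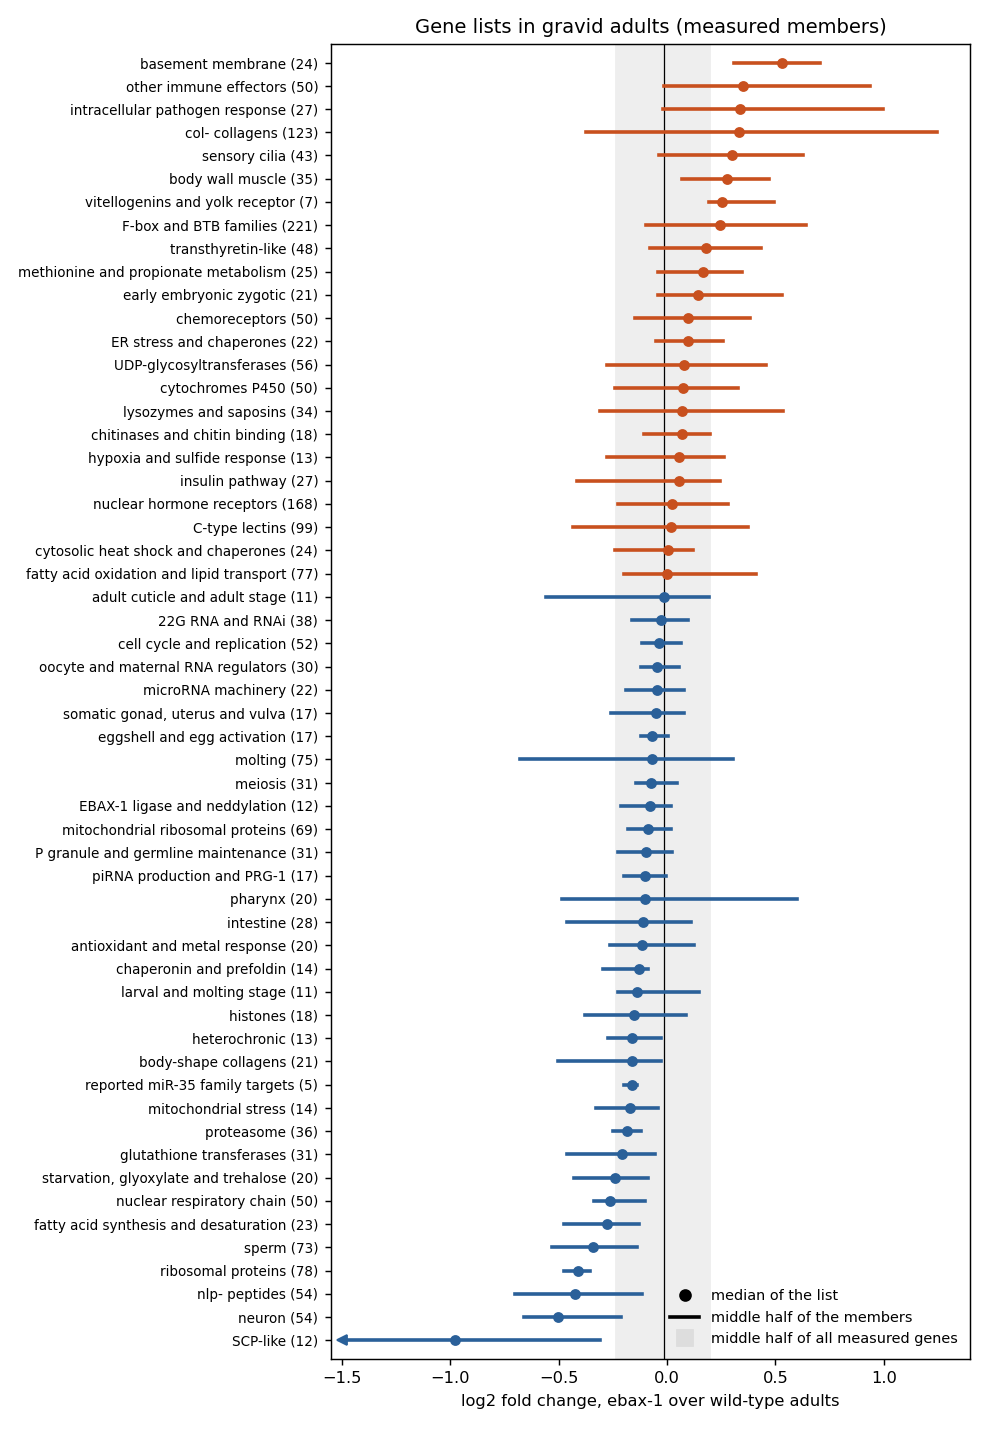
Median (circle) and range between the quartiles (bar) of the log2 fold changes of the measured members of each of 56 gene lists, with the number of measured members in parentheses. The grey band is the same range for all measured genes and the vertical line their median of -0.01. Basement membrane genes lie highest at 0.53, and neuronal, *nlp-* and ribosomal protein genes and the SCP-like genes lie lowest. The bar of the SCP-like genes runs past the left edge.

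Gene lists of the germline and the oocyte had medians close to 0. In oocyte and maternal RNA regulators, meiosis, eggshell, cell cycle and replication, piRNA production, and P granule and germline maintenance, 0 of 30, 31, 17, 52, 17 and 31 measured genes reached 2-fold in either direction. Over all measured genes 5.91% did, and 2.1% of those with 1000 or more counts, so counts of 0 in lists this small say little. The medians of these lists, in the same order, were -0.04, -0.07, -0.07, -0.04, -0.10 and -0.10. The members farthest from 0 were the germline stem cell regulators *fbf-2* (388 and 143 counts, -0.77) and *fbf-1* (487 and 201 counts, -0.61), the cyclin-dependent kinase gene *cdk-4* (0.59) and the meiotic kinase *chk-2* (-0.53). *pid-3*, needed to make piRNAs, stood at -0.32, the Piwi gene *prg-1* at -0.21, the eggshell gene *perm-4* at -0.26 and the RNA regulator *etr-1* at -0.21.

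Yolk genes were slightly above 0. Of 7 vitellogenin and yolk receptor genes 6 were above 0, with a median of 0.25. *vit-4* had 1200 and 2647 counts (3.5-fold, 3.27 to 3.75) and *vit-3* had 3934 and 3978 counts. *vit-3*, *vit-4* and *vit-5* are near-identical, so unique alignment leaves each of them uncertain. The receptor *rme-2* was at -0.01. Sperm genes were below 0 in 64 of 73 cases, with a median of -0.34. At least 2-fold lower were 2, *msp-59* (89 and 24 counts) and *spe-10* (175 and 54 counts). These are 2.74% of the list, near the 2.71% of all measured genes. The *msp* genes are near copies of each other, and 20 of 21 measured were below 0. Hermaphrodite sperm is made before adulthood, and the list summed to 0.12% and 0.105% of counts. Early zygotic genes had 2 of 21 measured members at least 2-fold higher, the hatching protease *hch-1* (68 and 155 counts) and *sdz-5* (35 and 53 counts), and a median of 0.14. The 2 are 9.52% of the list, beside 3.19% of all measured genes.

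Gene lists of small RNA pathways had medians near 0. Over all measured genes 5.91% reached 2-fold, so counts of 0 in lists this small say little. Among microRNA machinery genes 0 of 22 reached 2-fold, with a median of -0.05. *pab-1*, *cgh-1* and the Drosha gene *drsh-1* stood at -0.47, -0.36 and 0.30. Of 38 genes of 22G RNA and RNAi 0 reached 2-fold, with the RNA-dependent RNA polymerase genes *rrf-2* and *rrf-1* at 0.81 and 0.37 and the spermatogenic Argonautes *alg-3* and *alg-4* at -0.48 and -0.37. In the EBAX-1 ligase and neddylation list *ebax-1* was the 1 of 12 genes past 2-fold. The other members ran from -0.24 for *ned-8* to 0.14 for the guidance receptor *sax-3*, with *cul-2*, *elb-1* and *elc-1* at -0.06, -0.08 and 0.06. All 5 measured genes reported as miR-35 family targets were below 0, with a median of -0.16. They were *ndk-1* (-0.24), *nhl-2* (-0.20), *gld-1* (-0.16), *lin-23* (-0.14) and *sup-26* (-0.04), and none reached 2-fold. Over all measured genes 51.6% were below 0, with quartiles of -0.23 and 0.20. *ndk-1* lay just below the lower quartile, and the other members lay between the quartiles. Whether these 5 genes differ from other genes was not tested. Of 13 heterochronic genes, which set developmental timing, 10 were below 0 and the median was -0.16, with *hbl-1* at 0.69 and *lin-29* and *lin-42* at -0.57 each.

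Genes of substrate receptor families of ubiquitin ligases lay mostly above 0. Of 221 measured F-box and BTB genes 22 were at least 2-fold higher and 5 lower, or 9.95% and 2.26%, beside 3.19% and 2.71% of all measured genes, with a median of 0.25. *fbxa-72* had 117 and 355 counts, *fbxa-59* had 127 and 250, and *fbxa-26* had 79 and 172. *fbxa-30*, at 16 and 37 counts, and *fbxb-35*, at 20 and 43, were rarer. With a minimum of 200 counts their median was 0.10. Nuclear hormone receptors had a median of 0.02, with 4 of 168 higher and 4 lower, or 2.38% each way beside 3.19% and 2.71% of all measured genes, among them *nhr-178* (1.89), *nhr-263* (-2.11), *nhr-21* (-1.42) and *nhr-114*.

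Chromosome V held more of the genes past 2-fold than of the measured genes. It held 2587 of the measured genes (19.1%) but 158 of the 433 higher genes (36.5%) and 116 of the 368 lower genes (31.5%). On it 6.11% of measured genes were higher and 4.48% lower. The shares were 1.6% and 1.56% on chromosome I and 1.48% and 1.53% on chromosome III. The left, middle and right part of chromosome V, of equal length each, held 7.07%, 5.99% and 5.26% measured genes that were higher and 6.27%, 3.73% and 3.8% that were lower. Of the 12 mitochondrially encoded genes 0 reached 2-fold.

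**Figure D5:**
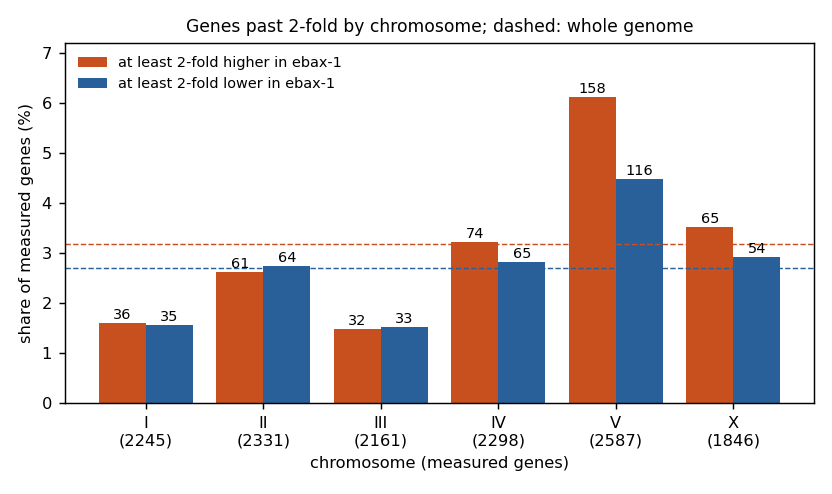
Share of measured genes at least 2-fold higher (orange) or lower (blue) in *ebax-1* adults on each nuclear chromosome, in percent, with the number of genes above each bar and the number measured in parentheses below. Dashed lines give the shares over all measured genes, 3.19% and 2.71%. Chromosome V lies above both lines at 6.11% and 4.48%.

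Measured genes past 2-fold followed one another along a chromosome at several places. Genes below the count minimum were passed over, so members of a run need not be adjacent. Counting runs of 3 or more neighbouring measured genes past 2-fold in one direction, there were 19 runs with 64 genes, 12 higher and 7 lower, and 16 of the runs were on chromosome V. The higher runs on chromosome V included *dod-19*, *irg-8* and *M02H5.8* (411782 to 450437), *exh-1*, *C36C5.12*, *C36C5.14* and *C36C5.15* (3157086 to 3168750), and *fat-7*, *F10D2.10*, *ugt-39* and *ugt-41* (7151353 to 7163595). Others held *dct-17*, *F35E12.6* and *irg-5* (13727761 to 13738474), *T26H5.10*, *T26H5.9* and *T26H5.4* (15443330 to 15448701), and *pqn-63*, *col-146* and *col-147* (9616031 to 9633338). *C36C5.14* and *C36C5.15* stood at 2.94 and 3.45 and *dct-17* at 2.48. *T05E12.6*, *srh-237* and *ZK218.5* (2.15, 1.47 and 1.97) formed a run, as did *ptr-22*, *Y80D3A.8*, *hrg-10* and *ztf-20* (1.72, 1.08, 1.43 and 1.39). Outside chromosome V the higher runs were *C40A11.3*, *C40A11.6* and *C40A11.2* on chromosome II (1.07, 1.33 and 1.51) and the F-box genes *fbxa-5*, *fbxa-26* and *fbxa-27* on chromosome III (1.48, 1.77 and 1.59).

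The lower runs on chromosome V were *R08F11.4*, *scl-13* and *scl-12* (3803839 to 3813437), *C54F6.15*, *C54F6.6* and *C54F6.17* (7521900 to 7528008), and *F36F12.2*, *F36F12.1* and *F22F7.4* (2091731 to 2106076). *C54F6.6* and *C54F6.17* stood at -2.18 and -3.98, and *F36F12.1* and *F22F7.4* at -3.14 and -1.34. *pud-3*, *pud-4*, *gst-10* and *Y45G12C.1* (2324634 to 2568882) were at -2.27, -1.56, -1.07 and -1.83. *W06G6.17*, *W06G6.9*, *W06G6.10* and *W06G6.20* ran from -1.94 to -1.07, and *C25E10.5*, *C25E10.4*, *srsx-34* and *cyp-33B1* from -1.91 to -1.08. On chromosome II the genes *Y110A2AL.9*, *Y110A2AL.3* and *Y110A2AL.2* stood at -1.35, -1.42 and -1.78.

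In windows of 10 consecutive measured genes the highest median was 1.06, on chromosome V from 3318170 to 3401063, where 9 of 10 genes were above 0. It held *C17B7.5* (1.96), *C04E12.2* (1.81) and *T20D4.10* (2.06). The next were also on chromosome V, at 1.04 around *ptr-22* (18903772 to 18981479) and at 0.95 around *T28A11.16* and *F35F10.5* (3210196 to 3285902). The lowest median was -1.22, from 7511765 to 7552708 around the *C54F6* genes, where 9 of 10 genes were below 0. The other low windows held the pharyngeal gland genes *phat-3*, *phat-4*, *phat-5* and *phat-7* (-0.84, 4042181 to 4130909) and the *pud-3* run (-0.78, 2276013 to 2568882). All 6 of these windows of 10 genes lay on chromosome V.

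The adult libraries were made to see whether protein-coding genes differ at a stretch of lowered piRNAs on chromosome IV. Of the protein-coding genes that start in this interval 62 were measured (WBcel235, 4761049 to 5220169), and 42 were below the minimum, 5 of them at 0 in both libraries. The quartiles of the 62 log2 fold changes were -0.25 and 0.16, beside -0.23 and 0.20 for all measured protein-coding genes. Their median was -0.03 (order-statistic interval -0.09 to 0.07). At 0.5 or more on the log2 scale, in either direction, were 10 of the 62 genes, beside 21% of all measured protein-coding genes. Summed over the interval, the genes had 55346 and 35418 counts, a scaled ratio of 1.01. The members farthest from 0 were WBGene00006038, named *ssp-9* in the annotation (117 and 39 counts), *R11E3.2* (29 and 34 counts) and *T08B6.9* (-0.82). The annotation gives the name *ssp-9* to a neighbour too, WBGene00006040, which had 57 and 39 counts and a log2 fold change of 0.12. These genes and *T08B6.9* had 0 or 1 count in each L1 library. The 500 kb on the left and on the right had medians of -0.09 each over 77 and 68 genes, with summed ratios of 0.865 and 0.945, and the rest of chromosome IV had a median of -0.04.

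Genes past 2-fold were compared with the stage at which wild-type worms express them. The log2 ratio of the mean wild-type L1 level to the mean of both adult libraries had a median of -0.02 for the higher genes, -0.45 for the lower genes and -0.40 for all measured genes. Of the higher genes 49.9% had a higher level in L1 larvae, beside 43.2% of the lower genes and 43.1% of all measured genes. At least 8-fold above the L1 level in adults were 23.4% of the lower genes, 16.9% of the higher genes and 16.6% of all genes. Larval and adult libraries differ in stage, feeding and input RNA, and adult noise enters both sides of this comparison, so these shares are a description.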

How the data were processed

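One table of raw, unnormalized counts, deposited by the authors, covers 6 poly(A)+ libraries. Single-end reads from a stranded kit were aligned with STAR 2.7.1a, and uniquely placed reads were summed over coding sequence by strand with featureCounts, as the submitters' processing notes and the methods of the study state. The notes give build WBcel235 and the methods WormBase annotation. Untranslated regions were not counted, and reads shared by near-identical genes are lost, so recent paralogs are uncertain. Strand-aware counting keeps antisense genes apart. DESeq2 is also named in the notes.

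Here the adult libraries were scaled with TMM factors over all genes (edgeR 4.0.16, R 4.3.3), and log2 fold changes were computed with a prior count of 1 for genes with at least 50 counts over both libraries. With 1 library per genotype no test was fitted, and a gene past 2-fold was called by size alone. Ratios have 95% Clopper-Pearson intervals (scipy 1.17.1), and a count of 0 was set at a floor of 3 counts per library, or 0.142 CPM in wild type and 0.226 CPM in the mutant. Total counts were 21328335 and 13148409, and the measured genes held 99.8% of each. Positions and symbols came from the WBcel235 annotation, which gave a position to 20159 and a symbol to 19620 of 20447 genes. Of the measured genes 83 had no position.

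The members and the 56 gene lists were chosen with earlier results of these data known. Named genes were *ebax-1*; the 12 highest and 12 lowest with at least 5 CPM in an adult library; the 6 highest and 6 lowest with at least 100 CPM; every gene with 0 counts in one adult library and at least 50 in the other; up to 4 per list with the largest absolute change; the members of runs and windows; the 3 largest in the chromosome IV interval; and defining genes of a list. Genes named beyond this, such as the dauer group and further collagens, hedgehog-related and ribosomal genes, were chosen after their values were seen. Stage ratios used TMM factors over all 6 libraries and 0.1 CPM added to each level. The log2 fold change and interval steps were tested on simulated counts with 200 changed genes. That simulation used library totals and counting error only, so the TMM factors were not tested. Motifs in promoters were planned and not run, because no genome sequence was used here. Alternatives were other scalings (total counts, DESeq2 1.42.0 size factors), prior counts and count minimums, another interval and window size, and, added after seeing the data, centring on coding-length deciles.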

Additional observations from a re-analysis of the deposited data

How the results depend on the processing

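The number of genes past 2-fold depended on the count minimum. With at least 1 count over both libraries 1399 genes were higher and 1254 lower, with at least 200 counts 208 and 181, and with at least 50 counts in wild type 241 and 338, beside 433 and 368 at the minimum used. The last rule leaves out genes with fewer than 50 counts in wild type whatever their count in the mutant, which moved the higher share of these calls from 54.1% to 41.6%. Total-count scaling gave 462 and 335, DESeq2 size factors 444 and 359, prior counts of 0.25 and 5 gave 442 and 375 and 393 and 327, and length centring 445 and 334. The interval on chromosome IV had a median of -0.03 at the main setting and 0.00 under total-count scaling. Widened by 500 kb on each side it had -0.06, and the flanks without the interval had -0.09. Total-count scaling moved the median of all genes from -0.01 to 0.02. Of the list medians, those of ribosomal proteins (-0.38 under total counts, -0.36 length-centred), F-box and BTB genes (0.10 at 200 counts, 0.15 at 50 in wild type) and chemoreceptors (-0.20 at 1 count) left their order-statistic interval. Those of immune effectors (0.09 at 200 counts) and sensory cilia (0.15) moved within it. The sign of the chemoreceptor median turned at 1 count. So did those of the insulin (-0.06), pharynx (0.42), nuclear hormone receptor (-0.01) and adult cuticle and adult stage (0.02) medians. Under total-count scaling the signs of the 22G RNA and RNAi (0.01) and adult cuticle and adult stage (0.02) medians turned. With a prior count of 5, *scl-11*, *oac-39* and *ZK228.3* stood at -6.98, -5.95 and -5.39, since a fitted fold against 0 depends on the prior. Windows of 20 genes kept chromosome V highest and lowest, at 1.03 and -0.46. The third highest of them lay on chromosome X (0.64) and the third lowest on chromosome IV (-0.35). The promoter motif search was not run. No paired analysis was possible because the result comes from no test, with 1 adult library per genotype. One library cannot be left out, so nothing here measures how far adult worms of one genotype vary, and genotype, strain and culture cannot be told apart.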
